A study of Mus musculus with 6 samples.

Results

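Compact myelin genes are described here through 6 members, *Mbp*, *Pmp22*, *Pmp2*, *Mal*, *Mobp* and *Cnp*, which were found by their symbol among the 59485 genes (23506 of them with a symbol) of a table of normalized read counts from mouse sciatic nerve. The table holds 6 libraries from postnatal day 4 (P4), each made from the nerve RNA of 1 animal. The 3 control libraries are labelled wild-type, a name that the study's methods give to animals without Cre that carry R26R and 1 or 2 floxed *Adar1* alleles. The 3 mutant libraries are labelled Ht-PA-Cre; Adar1fl/fl;R26R. In these animals, the human tissue plasminogen promoter drives Cre recombinase in neural crest cells, so that both floxed copies of *Adar1* (*Adar* in the table, the gene of the RNA editing enzyme ADAR1) are to be deleted in Schwann cells (SCs) and in the other derivatives of the neural crest, and R26R is the YFP tracer of the recombined cells. A nerve also holds endothelial cells, fibroblasts, perineurial cells, blood and fragments of muscle or fat. Each value is thus a sum over cell types, and fewer cells of a type cannot be told apart from less RNA per cell.

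Myelin is the stack of SC membrane that is wrapped around an axon. In its compact part the cytoplasm is squeezed out, and the membrane surfaces are held together by a small set of proteins that the cell makes in very large amounts when it starts to myelinate. MBP binds the cytoplasmic membrane faces to each other and is made from mRNA that is carried into the sheath. PMP22 is a protein with several membrane spans whose dose is known to matter in inherited neuropathies, and PMP2 (also called P2 or FABP8) is a fatty acid-binding protein that stacks membranes in peripheral myelin. MAL is a proteolipid of lipid-rich membranes, MOBP is best known from the compact myelin of oligodendrocytes in the central nervous system, and CNP is an enzyme of the cytoplasm-rich parts of the sheath, so that it belongs with myelin but less with its compact part.

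The recovered reads on genes numbered from 50938349 to 78250094 per library, and a single read was worth 0.727 to 1.27 in the normalized values. The targeted gene *Adar* was at 1602, 2066 and 1133 in control replicates 1, 2 and 3 and at 11768, 9311 and 9773 in mutant replicates 1, 2 and 3, a log2 change of 2.72. The gene was thus higher where the labels give a deletion. The table holds 1 value per gene, in which a deleted segment cannot be seen, so this value does not show whether the deletion took place. Groups are called control-labelled and mutant-labelled below. Summed markers of skeletal muscle lay at 3659 to 20399 in control-labelled and 24019 to 185107 in mutant-labelled libraries, with 4 of 5 higher, and erythroid markers at 44257 to 62628 and 4102 to 12694, with 5 of 5 lower. Fibroblast markers had 2 of 5 lower, both just past 2-fold, with sums of 1925530 to 2169260 and 774845 to 1177220. The 2 called, *Col1a1* and *Col1a2*, made up most of these sums, while *Dcn*, *Pdgfra* and *Lum* overlapped between the groups. The count of lower fibroblast markers was 0 without mutant replicate 3, with libraries rescaled to the same total and with rescaling to the pan-Schwann genes. It was 1 in edgeR, in DESeq2 and without control replicate 1 or 2. Of the macrophage markers 2 of 5 were lower (1 of 5 without mutant replicate 3) and of the perineurial ones 1 of 4. At an unadjusted p at or under 0.05 (limma), whatever the fold, 2 macrophage markers were lower and 1 higher (*C1qa*, log2 change 0.56). By the same rule 2 perineurial markers were lower and 1 higher (*Cldn1*, 0.54). Of the endothelial markers 0 of 5 were lower, and 2 were higher at an unadjusted p at or under 0.05 (limma) but short of 2-fold. Without control replicate 1, 1 endothelial marker was higher past the threshold. With rescaling to the pan-Schwann genes, 5 endothelial, 1 macrophage and 1 perineurial marker were higher, and 1 macrophage and 0 perineurial markers lower. T cell markers were higher for 2 of 4, *Lck* and *Cd8a*, the latter tested only through its mutant-labelled values. *Lck* made up most of the mutant-labelled sum (491.6 to 566.6 of 517 to 634), and *Cd3e* and *Cd3g* overlapped between the groups. The part of these cells in the results was not tested.

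The promoters of the members are shown first, because the members were lower in the same libraries, though by unequal amounts (below), and the sequence in front of the start site is where regulators that they share would be looked for. RefSeq sequences (GRCm38.p6) were at hand for 4 of the 6 members, *Pmp22*, *Mal*, *Cnp* and *Mobp*. Each window searched runs from 250 bases before the start site to 50 bases after it, and the 250 bases before the start are printed, 5′ to 3′ on the strand of the gene, with matches to short motifs in capitals. They stand at chr11:63128732-63128981 (plus strand) for the first of the 4 annotated starts of *Pmp22*, at chr2:127656696-127656945 (minus strand) for *Mal*, at chr11:100574689-100574938 (plus strand) for *Cnp* and at chr9:120149492-120149741 (plus strand) for *Mobp*.
Pmp22: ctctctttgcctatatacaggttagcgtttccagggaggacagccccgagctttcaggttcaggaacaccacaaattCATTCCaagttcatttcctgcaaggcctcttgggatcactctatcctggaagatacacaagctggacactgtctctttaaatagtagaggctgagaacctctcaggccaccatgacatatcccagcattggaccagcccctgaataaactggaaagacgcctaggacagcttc
Mal: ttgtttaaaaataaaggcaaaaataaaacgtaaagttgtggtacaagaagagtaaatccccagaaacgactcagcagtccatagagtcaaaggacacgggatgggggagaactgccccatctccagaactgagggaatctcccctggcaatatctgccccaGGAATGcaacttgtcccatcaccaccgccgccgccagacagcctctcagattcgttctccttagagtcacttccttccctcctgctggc
Cnp: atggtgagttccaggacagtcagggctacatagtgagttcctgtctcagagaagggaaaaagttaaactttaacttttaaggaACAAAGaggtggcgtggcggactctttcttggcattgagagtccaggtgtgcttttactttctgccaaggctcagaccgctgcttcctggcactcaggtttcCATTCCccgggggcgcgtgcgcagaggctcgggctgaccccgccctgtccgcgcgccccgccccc
Mobp: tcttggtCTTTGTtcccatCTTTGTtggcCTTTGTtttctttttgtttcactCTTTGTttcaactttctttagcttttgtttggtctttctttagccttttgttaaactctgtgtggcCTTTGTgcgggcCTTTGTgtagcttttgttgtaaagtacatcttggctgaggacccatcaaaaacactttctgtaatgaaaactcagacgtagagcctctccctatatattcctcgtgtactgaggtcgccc
The motif GGAATG, the core bound by TEAD factors, was searched like all motifs on both strands. It matched in 3 of the 4 windows, at position -173 from the start in *Pmp22* (on the opposite strand, CATTCC), -89 in *Mal* and -65 in *Cnp* (opposite strand), while 14.7% of 32851 RefSeq promoter windows of the same length held it. The SOX core ACAAAG matched once in *Cnp*, at -167, and 6 times in *Mobp*, each time on the opposite strand as CTTTGT, against 18.7% of all windows with a match. The EGR core GCGTGGG matched 20 bases after the start of *Cnp*, outside the printed stretch, and is in 5.04% of all windows. No match to TATAAA, to the other SOX core ACAATG, to the SREBP motif TCACNCCAC or to the interferon-stimulated response element was found in these 4 windows, motifs that 13.6, 12.6, 1.24 and 3.44% of all windows hold. No match overlapped another. The other 3 starts of *Pmp22* held none of the motifs. G and C made up 50.7, 51, 59.7 and 43.3% of the windows of *Pmp22*, *Mal*, *Cnp* and *Mobp*. These matches describe the letters of the windows and say nothing of binding in the nerve.

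Whether the deletion in neural crest cells goes with a change in myelin genes was asked by comparing the libraries gene by gene. Each of the 6 members was lower past the threshold in the mutant-labelled libraries (unadjusted p at or under 0.05 and at least 2-fold in limma's moderated test on log2(value + 1)), where 10.4% of the 25802 genes tested were lower by the same rule. For 5 of the 6, all but *Pmp2*, the Benjamini-Hochberg adjusted p (over all genes tested) was also at or under 0.05, against 8.46% of the tested genes. In all 6 members, the 3 mutant-labelled values lay below the 3 control-labelled ones, as they did in 23.3% of the tested genes. *Mobp* passed the filter on low values only through the control-labelled libraries, so that it could only be lower, and its call counts for nothing here. Of the 5 members that passed in both groups, 5 were lower past the threshold, 4 of them with an adjusted p at or under 0.05. The median log2 change was -3.31 over the 6 members and -3.04 over these 5, and that of all tested genes was 0.03. Together the members took 4.42, 4.53 and 4.99% of the reads on genes in control replicates 1, 2 and 3, and 0.719, 0.146 and 0.33% in mutant replicates 1, 2 and 3.

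**Figure D1:**
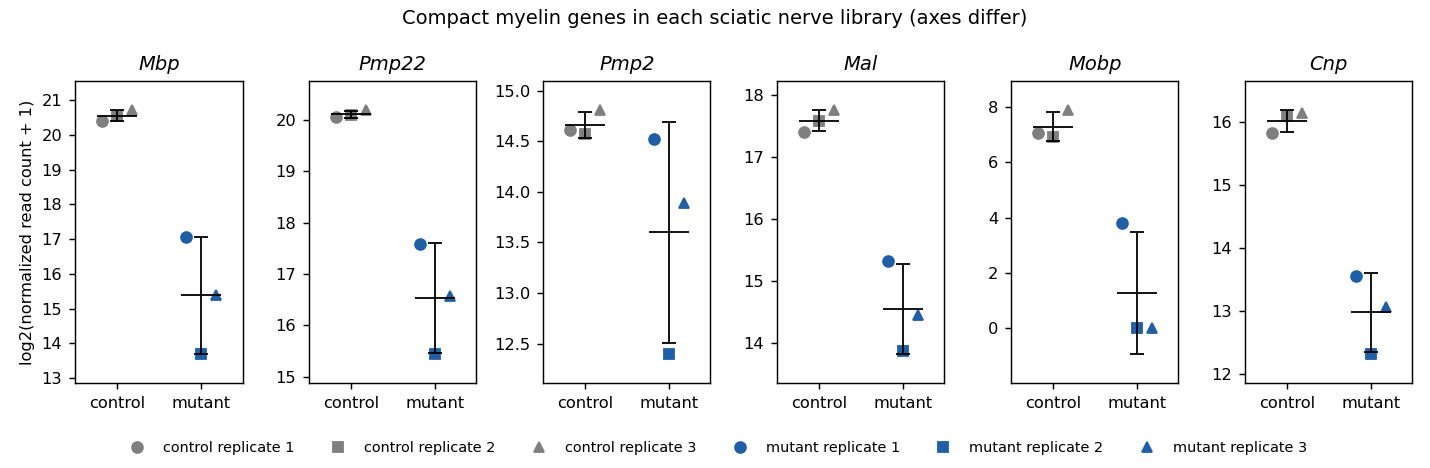
Normalized read counts of the 6 members on the log2(value + 1) scale, 1 panel per gene with its own vertical axis; gray symbols are the 3 control-labelled and blue symbols the 3 mutant-labelled libraries, and the bars show the mean and SD on this scale (n = 3). In every panel the blue symbols lie below the gray ones, with the narrowest gap in *Pmp2*, and mutant replicate 1 (circle) is the highest of the blue symbols.

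*Mbp* (GSMG0018647, mm10 chromosome 18, 82475123 to 82585637, plus strand) had more normalized reads than any other member in the control-labelled libraries, and fewer than *Pmp22* in each mutant-labelled one. It was at 1369740, 1533900 and 1707840 in control replicates 1, 2 and 3, and at 137354, 13209.7 and 42987 in mutant replicates 1, 2 and 3. The groups stood far apart, and mutant replicate 1 kept 10.4 times as much as mutant replicate 2. The means were 1537160 ± 169073 (SD, n = 3) and 64517 ± 64812 (SD, n = 3), a log2 change of -5.16 (SE 0.68, 95% interval -6.72 to -3.60, limma adjusted p = 0.00069). By itself *Mbp* took 2.23, 2.37 and 2.65% of the reads in the control-labelled libraries and 0.241, 0.0232 and 0.0762% in the mutant-labelled ones. By mean normalized read count, not corrected for length, it ranked 2 among all genes in the control-labelled libraries and 72 in the mutant-labelled ones. By log2 change it ranked 34 among the lowered genes past the threshold. The annotation (GENCODE M21, mm10) gives 14 coding transcripts to this locus, which include the long Golli forms, and the counting on constitutive regions gives 1 value for all of them.

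*Pmp22* (GSMG0005335, mm10 chromosome 11, 63128982 to 63159546, plus strand) was at 1087470, 1115390 and 1192460 in control replicates 1, 2 and 3. In mutant replicates 1, 2 and 3 it was at 195117, 44309 and 97107. The control-labelled values lay close together, with a coefficient of variation of 4.8%, and every mutant-labelled value was below them. The means were 1131770 ± 54382 (SD, n = 3) and 112178 ± 76525 (SD, n = 3), and the log2 change was -3.58 (SE 0.44, 95% interval -4.58 to -2.58, limma adjusted p = 0.000463). A gene without a symbol (GSMG0006800, chromosome 11, 63130310 to 63133390) overlaps *Pmp22* on the other strand, at 1154, 1278 and 1440 in control-labelled and 300.4, 71.4 and 187.9 in mutant-labelled libraries. The library kept the strand, but whether the counting used it is not given in the sources used here, so that reads of *Pmp22* and of this gene may not be told apart.

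*Mal* (GSMG0023496, mm10 chromosome 2, 127633228 to 127656697, minus strand) was at 173605, 196216 and 219945 in control replicates 1, 2 and 3 and at 40987, 14983 and 22287 in mutant replicates 1, 2 and 3. The highest mutant-labelled library lay 4.24-fold below the lowest control-labelled one. The means were 196589 ± 23172 (SD, n = 3) and 26086 ± 13412 (SD, n = 3), a log2 change of -3.03 (SE 0.31, 95% interval -3.74 to -2.32, limma adjusted p = 0.000184).

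*Cnp* (GSMG0005919, mm10 chromosome 11, 100574915 to 100591729, plus strand) was at 58236, 69938.5 and 72359 in control replicates 1, 2 and 3. In mutant replicates 1, 2 and 3 it was at 12078, 5091 and 8536. It had the smallest spread of the members among the mutant-labelled libraries, with a coefficient of variation of 40.8%. The means were 66844.5 ± 7553 (SD, n = 3) and 8568 ± 3494 (SD, n = 3), a log2 change of -3.04 (SE 0.27, 95% interval -3.66 to -2.43, limma adjusted p = 8.7e-05). *Dnajc7*, which overlaps *Cnp* on the other strand, was at 10091, 10100 and 10765 in control-labelled and 8565, 7874 and 7481 in mutant-labelled libraries.

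*Mobp* (GSMG0040235, mm10 chromosome 9, 120149741 to 120181488, plus strand) was scarce in the nerve. It was at 131, 120.002 and 234 in control replicates 1, 2 and 3, from 430 reads in all, and at 13.1, 0 and 0 in mutant replicates 1, 2 and 3, from 18 reads, all of them in mutant replicate 1. Mutant replicate 1 was 12.4-fold below the control-labelled mean of 162 ± 63.1 (SD, n = 3). With a floor of 3 reads per library, which covers counting error only, mutant replicates 2 and 3 were at least 55.9-fold and 54.5-fold lower than that mean. The fitted log2 change of -6.01 (SE 1.04, limma adjusted p = 0.00273) depends on the pseudocount of 1, and was -8.25 with 0.1 and -3.64 with 10.

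*Pmp2* (GSMG0065091, mm10 chromosome 3, 10179851 to 10183885, minus strand) changed least among the members. It was at 25050.4, 24330.2 and 28683 in control replicates 1, 2 and 3 and at 23505, 5382 and 15139.7 in mutant replicates 1, 2 and 3. The values did not overlap, but the lowest control-labelled library was only 1.035 times the highest mutant-labelled one. The means were 26021 ± 2333 (SD, n = 3) and 14675.5 ± 9070 (SD, n = 3), a log2 change of -1.06 (SE 0.44, 95% interval -2.08 to -0.05, limma unadjusted p = 0.0422, adjusted p = 0.0977). The call was lost with both count tests on the recovered reads, at a log2 change of -0.81 with an adjusted p of 0.187 in edgeR's quasi-likelihood test and -0.83 with an adjusted p of 0.192 in DESeq2. These 2 tests placed 9.39 and 9.76% of the tested genes lower past the threshold. Leaving out 1 library ended the call in 5 of 6 cases. In 4 of them the change stayed between -1.21 and -0.99. Without mutant replicate 2 it was -0.46, and without mutant replicate 1, where the call was kept, it was -1.52.

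**Figure D2:**
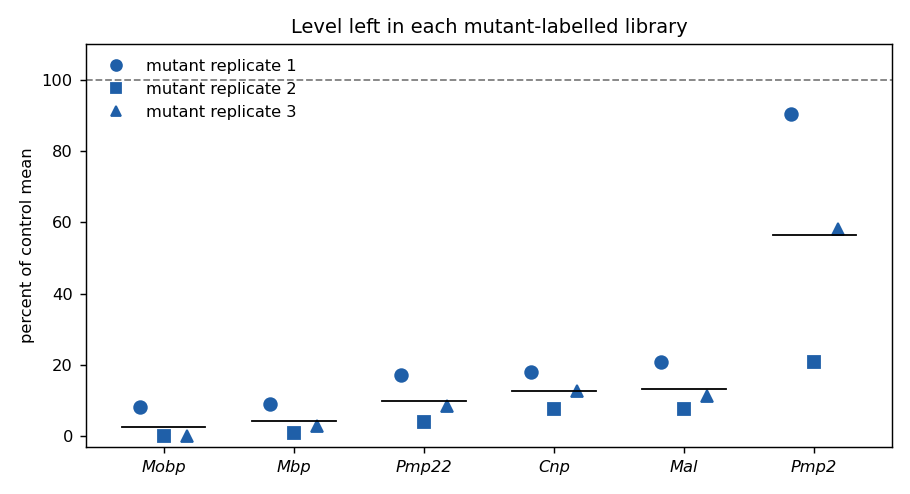
Level of each member in the 3 mutant-labelled libraries as a percentage of the mean of the 3 control-labelled libraries (dashed line at 100%), with black bars at the mean of the 3. *Mobp*, *Mbp*, *Pmp22*, *Cnp* and *Mal* lie between 0 and 20.9%, and *Pmp2* spans 20.7 to 90.3%.

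The members kept unequal shares of their control-labelled mean. The mutant-labelled mean was 2.7% of it for *Mobp*, 4.2% for *Mbp*, 9.91% for *Pmp22*, 12.8% for *Cnp*, 13.3% for *Mal* and 56.4% for *Pmp2*. By library, *Mbp* was at 8.94, 0.859 and 2.80% in mutant replicates 1, 2 and 3, *Pmp22* at 17.2, 3.91 and 8.58%, *Cnp* at 18.1, 7.62 and 12.8%, *Mal* at 20.9, 7.62 and 11.3%, and *Pmp2* at 90.3, 20.7 and 58.2%. Mutant replicate 1 was thus the highest, mutant replicate 3 the middle and mutant replicate 2 the lowest library for these 5 genes, and *Mobp* tied at 0 in mutant replicates 2 and 3. The same strict order was found in 18 of the 20 other myelin genes examined below, in 18.4% of all tested genes and in 29.8% of the lowered genes past the threshold. It was also the order of 3 of 6 pan-Schwann genes, among them *Sox10*, a transcription factor of all SCs, at 9171, 5838 and 6828 in mutant replicates 1, 2 and 3, but not of *Foxd3*, *Cdh19* and *Adgrg6*. Apart from *Mobp*, the coefficient of variation was 4.81 to 11.8% among the control-labelled and 40.8 to 100% (100.5% for *Mbp*) among the mutant-labelled libraries.

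Because a ratio within a library needs no scaling between libraries, the members were also compared pair by pair, as log2(value + 1) of one minus that of the other. Of the 15 pairs, 12 had ratios that did not overlap between the groups. They include the pairs of *Mobp* with *Pmp22*, *Pmp2*, *Mal* and *Cnp*, which rest on the pseudocount in mutant replicates 2 and 3 and count for nothing. How often other pairs of genes have ratios without overlap was not counted. Each of these 12 had an exact two-sided permutation p of 0.1, the smallest that 3 against 3 libraries can give, or 0.125 adjusted over the 15 pairs, so that no pair could pass 0.05. *Mal* and *Cnp* moved closest to each other. Their log2 ratio was 1.58, 1.49 and 1.60 in control-labelled and 1.76, 1.56 and 1.38 in mutant-labelled libraries, means of 1.56 ± 0.06 and 1.57 ± 0.19 (SD, n = 3, exact permutation p = 1). The ratio of *Pmp22* to *Cnp* was 4.22, 4.00 and 4.04 in control-labelled and 4.01, 3.12 and 3.51 in mutant-labelled libraries, which overlap (difference -0.54, exact permutation p = 0.2).

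The ratio of *Mbp* to *Cnp* did not overlap between the groups. It was 4.56, 4.46 and 4.56 in control-labelled and 3.51, 1.38 and 2.33 in mutant-labelled libraries, a difference of -2.12. Against *Pmp22*, *Mbp* was lower by a difference of -1.58, and against *Mal* by -2.13. *Pmp2* moved the other way relative to its fellows. Its log2 ratio to *Cnp* was -1.22, -1.52 and -1.33 in control-labelled and 0.96, 0.08 and 0.83 in mutant-labelled libraries, so that *Cnp* had more normalized reads than *Pmp2* in the control-labelled libraries and fewer in the mutant-labelled ones. The difference was 1.98 for *Pmp2* against *Cnp* and 1.97 against *Mal*. The ratio of *Mbp* to *Pmp2* differed by -4.10 and that of *Pmp22* to *Pmp2* by -2.52. The ratio of *Mbp* to *Mobp* overlapped between the groups (difference 0.85, exact permutation p = 0.4), and its sign turned with a pseudocount of 10.

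**Figure D3:**
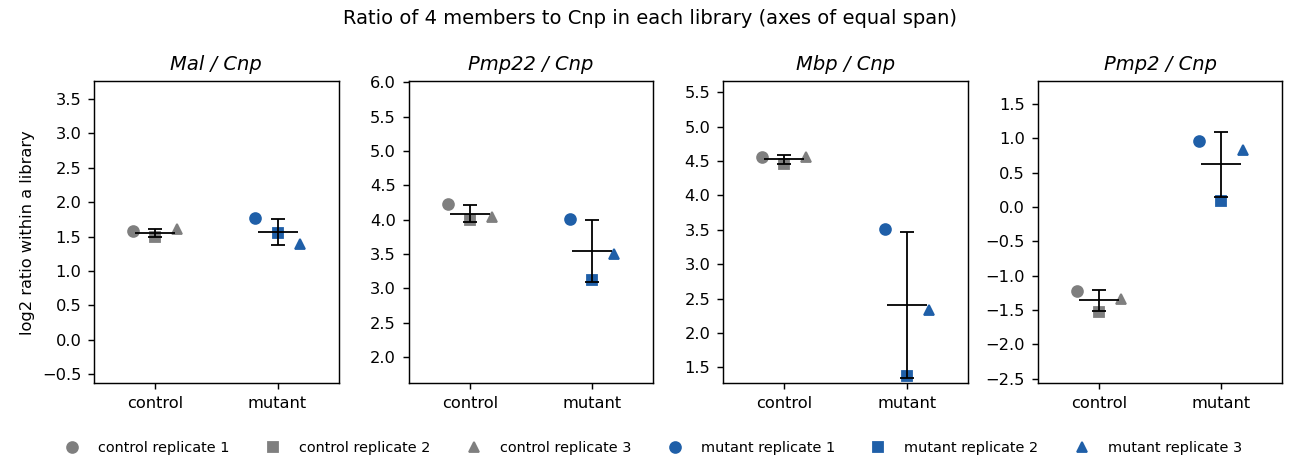
log2 ratio of *Mal*, *Pmp22*, *Mbp* and *Pmp2* to *Cnp* within each library (gray, control-labelled; blue, mutant-labelled), with the mean and SD of 3 libraries and vertical axes of equal span. *Mal* keeps a ratio near 1.56, *Mbp* drops by 2.12 and *Pmp2* is higher by 1.98 relative to *Cnp*.

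Levels of different genes were compared per kb of merged exons of the coding transcripts (GENCODE M21), since the lengths of the constitutive regions that were counted are not given in the sources used here. On this per-length scale *Pmp22* had the highest level in the control-labelled libraries, at 525180 ± 25235 (SD, n = 3) normalized reads per kb. *Mbp* followed at 189240 ± 20814, *Mal* at 70766 ± 8341, *Cnp* at 28360 ± 3204, *Pmp2* at 18481 ± 1657 and *Mobp* at 34.5 ± 13.5. No 2 neighbors in this order overlapped, but the place of *Mbp* depends on the length used. Its merged exons, over 14 coding transcripts, span 8123 bases, against 2155 for *Pmp22*. By normalized read count, not corrected for length, *Mbp* was above *Pmp22* in the control-labelled libraries. Which of them is higher per counted length cannot be told. In the mutant-labelled libraries *Pmp22* was again the highest, at 52055 ± 35511, but *Pmp2* came next at 10423 ± 6442. *Mal* was at 9390 ± 4828, *Mbp* at 7942 ± 7979, *Cnp* at 3635 ± 1482 and *Mobp* at 0.931 ± 1.61. There *Pmp22* lay above *Pmp2* and *Cnp* above *Mobp* without overlap, while neighbors among *Pmp2*, *Mal*, *Mbp* and *Cnp* overlapped and do not differ beyond their spread.

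**Figure D4:**
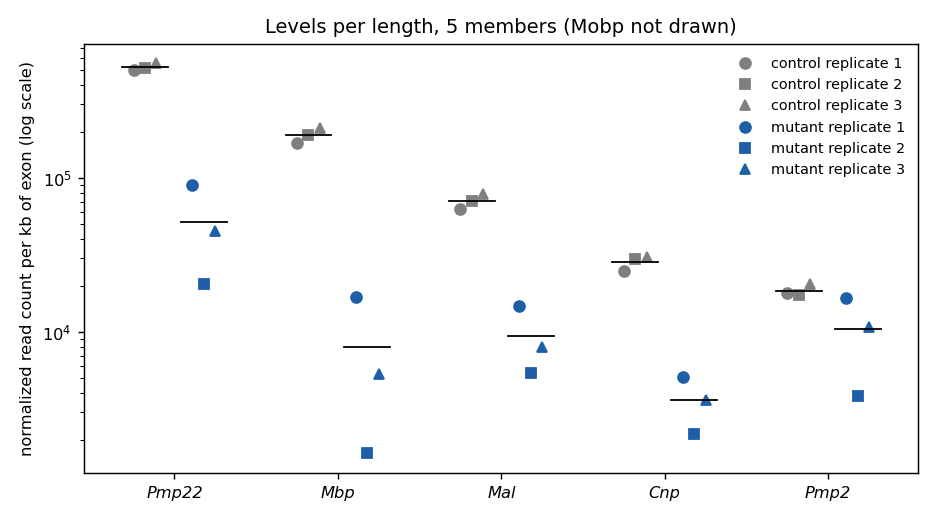
Normalized read count per kb of merged exon for 5 members on a log scale, with gray symbols for control-labelled and blue symbols for mutant-labelled libraries and black bars at the mean of 3; *Mobp* is not drawn because 2 of its values are 0. In gray *Pmp2* is the lowest of the 5, while in blue it lies among *Mal*, *Mbp* and *Cnp*, and *Pmp22* is the highest in both. The place of *Mbp* depends on the merged exon length used.

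Markers of SCs at large were read beside the members. Of 6 pan-Schwann genes, 2 were lower past the threshold, *Erbb3* (the receptor for neuregulin, log2 change -1.55) and *S100b* (a calcium-binding protein, -3.07). The others were *Sox10* at -0.71, *Adgrg6* at -0.64, *Foxd3* at -0.38 and *Cdh19* at 0.13, none past the threshold. At an unadjusted p at or under 0.05 (limma), whatever the fold, 5 of the 6 were lower and 0 higher. Relative to the mean log2 level of these 6 genes, which itself differed by -1.04, the change was -4.13 for *Mbp*, -2.55 for *Pmp22*, -1.995 for *Mal*, -2.01 for *Cnp* and -4.97 for *Mobp*. In these 5 the mutant-labelled values lay below the control-labelled ones (exact permutation p = 0.1, the smallest possible), as they did on this scale in 4.7% of all tested genes. *Mobp* was tested only through its control-labelled values, so it does not count here, and its value rests on the pseudocount in 2 libraries at 0. *Pmp2* relative to the pan-Schwann mean was 2.13, 2.04 and 2.23 in control-labelled and 2.77, 1.14 and 2.41 in mutant-labelled libraries, which overlap, with a difference of -0.03 (exact permutation p = 1). The pan-Schwann mean includes *S100b*, the most lowered of the 6, and the difference without it was not computed. Relative to *Sox10* alone the difference for *Pmp2* was -0.35, again with overlapping groups (exact permutation p = 0.8).

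Among 20 other genes of the myelin sheath, its junctions and its lipids, 18 were lower past the threshold and 0 were higher, also at an unadjusted p at or under 0.05 (limma), with a median log2 change of -3.36. *Fa2h*, which makes the 2-hydroxy fatty acids of myelin lipids, changed most, at -5.58. *Cadm4*, an adhesion molecule of the internode, changed least, at -0.48, and *Tspan2* was at -0.71, neither past the threshold. Also lower were *Mag*, the adhesion protein of the inner wrap (-3.84), *Prx*, periaxin (-3.40), *Ncmap*, a small membrane protein of noncompact myelin (-4.44), *Cldn19*, a claudin of the tight junctions (-3.96), *Gjb1*, connexin 32 (-3.39), *Drp2*, a partner of periaxin (-3.23), and *Ugt8a*, which makes galactosylceramide (-4.27). The smallest changes past the threshold were those of *Gpm6b*, -1.04, and *Gldn*, -1.25, which were at -0.92 and -0.98, short of 2-fold, without mutant replicate 2, so that 16 genes were lower. The count was 17 with libraries rescaled to the same total and 14 with rescaling to the pan-Schwann genes. Apart from *Mobp*, whose change rests on the pseudocount, the members ran from -5.16 for *Mbp* to -1.06 for *Pmp2*, about the same range as the called genes of this list.

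**Figure D5:**
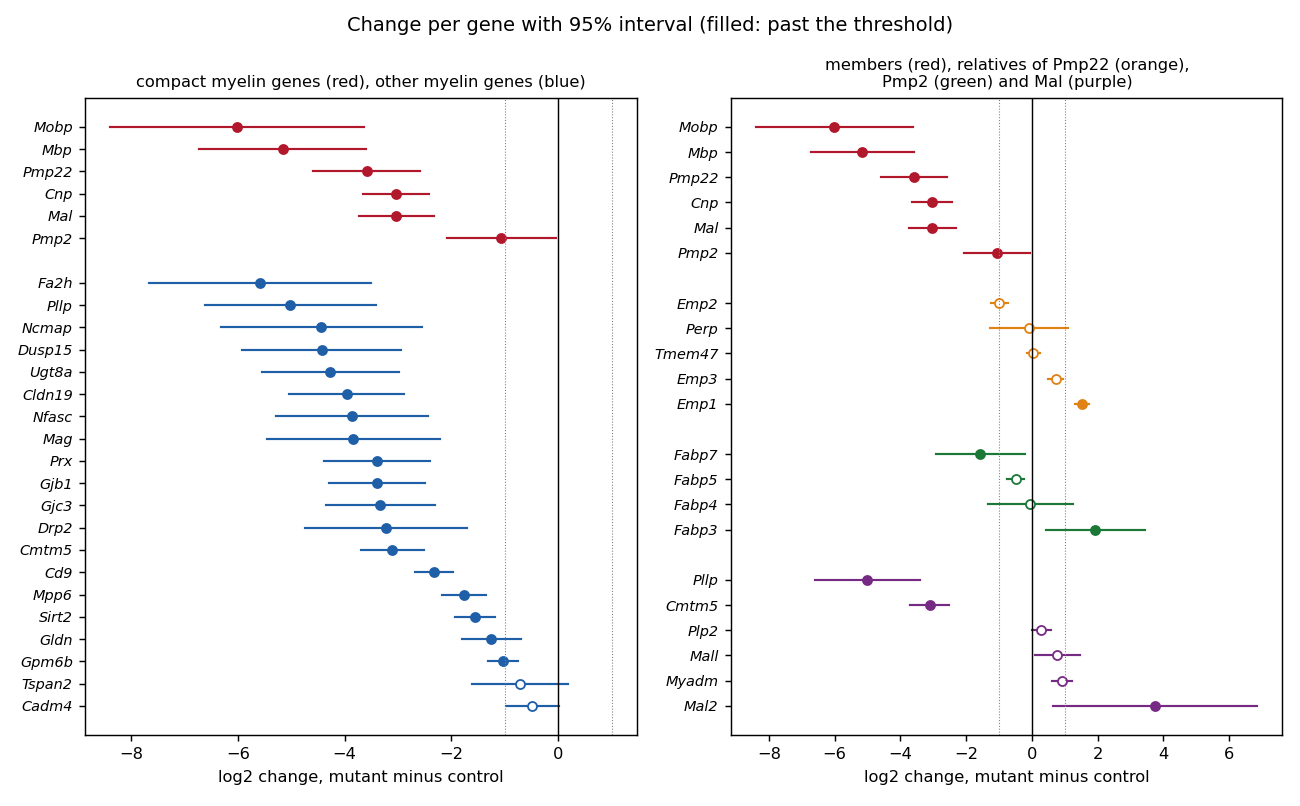
log2 change (mutant-labelled minus control-labelled) of each gene with its 95% interval from limma; filled symbols passed the threshold, and dotted lines mark 2-fold. On the left the members run from -6.01 to -1.06 and the other myelin genes from -5.58 to -0.48, and on the right relatives of *Pmp22*, *Pmp2* and *Mal* lie on both sides of 0.

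Relatives of the members lay on both sides of 0. Of 5 relatives of *Pmp22*, 0 were lower past the threshold in limma, and 1 (*Emp2*) was lower at an unadjusted p at or under 0.05. *Emp1*, an epithelial membrane protein, was higher, as were 13.9% of the tested genes by the same rule. It was at 20804, 22605 and 19558 in control-labelled and 58712, 64826 and 57365 in mutant-labelled libraries (log2 change 1.52, limma adjusted p = 1.6e-05). *Emp2* was at -0.99 and *Emp3* at 0.72, both with groups that did not overlap but short of 2-fold (25.9% of the tested genes had all mutant-labelled values above all control-labelled ones), *Perp* at -0.08 and *Tmem47* at 0.05. *Emp2* came past the threshold with libraries rescaled to the same 75th percentile and without control replicate 1, mutant replicate 1 or mutant replicate 3, and ran from -1.06 to -0.88 with 1 library left out. With rescaling to the pan-Schwann genes 3 of the 5 relatives were higher past the threshold and 0 lower. Along their longest reading frames, *Emp1*, *Emp2* and *Emp3* matched *Pmp22* in 61.7, 68.3 and 65.4% of the aligned bases, and the longest identical run was 22 bases (with *Emp2*).

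Of 9 other fatty acid-binding protein genes, 4 were tested and 4 had no reads in any library, and *Fabp9* was too low to test. *Fabp3*, the heart and muscle form, was higher past the threshold (log2 change 1.93, limma adjusted p = 0.0503), with its highest value, 1572, in mutant replicate 3, the library with the highest muscle sum. Without that library the change was 1.24 and without control replicate 2 it was 1.39, and both times the call was lost. *Fabp7*, the form of glia and their precursors, was lower past the threshold at low levels (38.0 to 67.7 in control-labelled and 8.73 to 33.6 in mutant-labelled libraries, log2 change -1.57, limma adjusted p = 0.0709). Its call was lost without control replicate 1 or 2 or mutant replicate 1 or 2, and with rescaling to the pan-Schwann genes (-0.57). Its change ran from -2.01 to -1.09 with 1 library left out. *Fabp5* was at -0.49. *Fabp4*, the fat cell form and the neighbor in sequence closest to *Pmp2* (73.2% of aligned bases, longest identical run 23 bases), was at 9720, 5441 and 4772 in control-labelled and 3154, 16924 and 4317 in mutant-labelled libraries (log2 change -0.04). Its highest library, mutant replicate 2, was the one with the lowest *Pmp2* and the highest sum of fat cell markers, 9612, against 18.8 to 2653 in the other libraries. How the counting treated reads that match both genes is not given in the sources used here, and the part of fat cells in these values was not tested.

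Of 6 relatives of *Mal*, *Pllp* (plasmolipin, log2 change -5.02) and *Cmtm5* (-3.11), both also on the list of other myelin genes, were lower. *Mal2* was called higher at 3.76, but it had 35.5, 0 and 0 in control-labelled and 39.3, 30.9 and 69.2 in mutant-labelled libraries, which overlap. This call was lost in edgeR (1.96), in DESeq2 (1.97) and in 4 of the 6 fits without 1 library. *Mall* was at 0.78, *Plp2* at 0.29 and *Myadm* at 0.92, none past the threshold. Without control replicate 1, *Mall* (1.05) and *Myadm* (1.03) came past it, as did *Myadm* without mutant replicate 3 (1.03), and with libraries rescaled to the same total. With rescaling to the pan-Schwann genes *Mal2*, *Mall*, *Myadm* and *Plp2* were all higher past the threshold.

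Of 13 regulators of peripheral myelination, which act upstream of the members, 3 were lower past the threshold (10.4% of all tested genes were), with a median of -0.54 over the 13. The 3 were *Pou3f1* (Oct6, a factor of the promyelinating stage, log2 change -2.19), *Pou3f2* (Brn2, -1.19) and *Erbb3* (above). None was higher past the threshold (limma), and with rescaling to the pan-Schwann genes 1 was lower and 6 were higher. At an unadjusted p at or under 0.05, whatever the fold, 7 were lower and 2 higher. *Egr2*, the zinc finger factor that drives myelin genes, was at 24383, 28903.5 and 30362 in control-labelled and 19843, 13078.5 and 18551 in mutant-labelled libraries. These groups did not overlap, and the log2 change of -0.72 (limma adjusted p = 0.00989) was short of 2-fold. *Nab1* and *Nab2*, partners of EGR factors, were at -0.02 and 0.63, *Yy1* at 0.35, *Nfatc4* at 0.29, *Tead1* at 0.04, *Zeb2* at 0.09, *Erbb2* at -0.54, and *Sox10* and *Adgrg6* as given above. Of 4 genes known to handle *Mbp* mRNA, *Fyn*, a kinase that promotes its translation, was lower past the threshold (-1.34). *Qk*, whose protein binds and stabilizes the mRNA, was at -0.70, *Hnrnpa2b1*, which carries it in granules, at -0.11, and the motor gene *Kif1b* at -0.35.

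*Mbp*, *Mal*, *Mobp* and *Cnp* are also genes of oligodendrocytes, the myelinating cells of the central nervous system, so markers of these cells were read beside them. *Mog*, *Olig1*, *Olig2* and *Ermn* were at 0 to 5.82 in every library and were not tested. *Opalin* was at 24.4, 9.45 and 48.2 in control-labelled libraries and at 0 in the 3 mutant-labelled ones. *Cldn11*, a claudin of oligodendrocytes and some other cells, was lower (log2 change -4.37), as was *Myrf* (-1.85), while *Nkx6-2* was higher at low levels (1.11 to 7.56 against 19.6 to 31.7). *Opalin* was tested only through its control-labelled values and *Nkx6-2* only through its mutant-labelled ones, so that their directions were set by the filter. The other tested markers, *Enpp6* (log2 change 1.48) and *Hapln2* (0.65), overlapped between the groups and were not past the threshold, which makes 3 lower, 1 higher and 2 not called of the 6 tested. Without mutant replicate 1, and with rescaling to the pan-Schwann genes, 2 were higher. Of 6 genes of nonmyelinating or immature SCs, *Gap43* and *Gfap* were higher, from 423 to 479 against 804 to 1173 and from 1.11 to 15.1 against 40.6 to 81.0 (*Gfap* was tested only through its mutant-labelled values, which set its direction), and 0 were lower past the threshold or at an unadjusted p at or under 0.05 (limma). Without mutant replicate 1, 1 was lower past the threshold, and with rescaling to the pan-Schwann genes 4 were higher.

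The genes whose values followed the members most closely over the 6 libraries were sought among 13037 genes with a symbol and a mean of at least 100, by Pearson's r of log2(value + 1) with the mean of the centered values of the 6 members. All such correlations share the same 6 libraries, which fall into 2 groups apart from each other, and are given as a description. Among the closest 8, r ran from 0.9996 to 0.9988, and they include *Syna*, *Kcnk1*, *Arl10*, *Mras*, *Cldn19*, *Ptpre* and *Uso1*. *Kcnk1*, a potassium channel gene, changed by -4.98 and *Syna* by -3.78, but *Uso1* went only from 7968 to 8009 in control-labelled to 7295 to 7595 in mutant-labelled libraries, a log2 change of -0.10. The closest to single members were *Ugt8a*, *Cuedc2* and *Sema4g* for *Mbp*, *Ston1*, *Gjb1* and *Mfsd2a* for *Pmp22*, *B230206H07Rik*, *Caskin1* and *Tmem189* for *Mal*, and *Abhd3*, *Rps6ka2* and *Aspdh* for *Cnp*. *Ccnk*, *Eml5* and *Asb1* for *Pmp2* and *Zfp354a*, *Med24* and *Sphk2* for *Mobp* had log2 changes of -0.12, -0.33, -0.78, -0.63, -0.30 and -0.49, none past the threshold.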

How the data were processed

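Sciatic nerves of 3 control and 3 mutant animals were profiled at P4, with 1 library per animal. The authors sequenced oriented poly-A cDNA as paired ends, mapped the reads to mm10 with STAR 2.4.0, counted reads on the constitutive regions of the genes in FAST DB, and scaled each library with its size factor from DESeq2. The deposited table holds this signal. In all 6 libraries, every value (100%) was a whole number of reads times the value of 1 read (tolerance 1e-06), so the reads were recovered. They numbered 50938349 to 78250094 per library, and floors of 3 reads cover counting error only, since PCR copies were not told apart by molecular identifiers.

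Groups and replicate numbers come from the labels. log2(value + 1) was compared between mutant and control with limma (lmFit, eBayes with trend) in the 25802 genes whose mean was at least 10 in either genotype, and p-values were adjusted over all of them (Benjamini-Hochberg). The threshold was an unadjusted p at or under 0.05 and at least 2-fold. Pair ratios and ratios to pan-Schwann genes were tested with exact two-sided permutation tests. p-values measure the spread between these animals. The alternatives were pseudocounts of 0.1 and 10, other filters, rescaling to the same total, 75th percentile, TMM factors or pan-Schwann genes, eBayes without trend, an adjusted p, edgeR's quasi-likelihood test and DESeq2 on the recovered reads, a block for the replicate number, and each library left out in turn. The fits were tested on simulated data.

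The members and gene lists were chosen with earlier results of these data known, so a list is described by its counts and median and not tested. The genes named are the 6 members, the most and least changed genes of the lists of myelin and Schwann cells with further examples, all tested relatives, regulators and mRNA handling genes, and the genes closest in pattern. For markers of other cell types mainly counts and sums are given. Single oligodendrocyte, T cell and nonmyelinating Schwann cell markers, and calls that rest on 1 library, were chosen for mention after their values were seen. Adipocyte markers had 0 of 5 past the threshold or at an unadjusted p at or under 0.05 (limma), and 1 lower past it without mutant replicate 2, and of 4 melanocyte markers tested 2 were lower and 1 was higher, of which 1 lower and the higher one were tested only through the group where they are high. 1 listed T cell marker did not match a symbol of the table. Exons came from GENCODE M21 and promoters from RefSeq (GRCm38.p6). The values of some single genes and the protein sequences are not reported here. The software was limma 3.58.1, edgeR 4.0.16 and DESeq2 1.42.0 in R 4.3.3, and Python 3.11.15 with numpy 2.4.6, pandas 2.3.3, Biopython 1.88 and matplotlib 3.10.9.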

Additional observations from a re-analysis of the deposited data

How the results depend on the processing

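*Mbp*, *Pmp22*, *Mal* and *Cnp* stayed lower past the threshold under all 19 alternatives. Their log2 changes ranged from -6.01 to -4.13, -4.11 to -2.55, -3.42 to -1.995 and -3.34 to -2.01. That of *Mobp*, whose direction the filter set, ranged from -8.25 to -3.64. *Pmp2* lost its call in 12 of 19. It was at -1.06 with a pseudocount of 0.1, without the trend in eBayes and with an adjusted p at or under 0.05, at -0.90 with the same total, at -0.026 with pan-Schwann scaling, at -0.81 with edgeR, at -0.83 with DESeq2, and from -1.52 to -0.46 with 1 library left out. The same-number libraries of the 2 groups are different animals, and the correlations of their deviations were -0.06, -0.06 and 0.01. These values give no sign of pairing by number, but so few libraries cannot exclude it. With the replicate block 6149 genes passed the threshold, against 6251 without it, and no member changed its call. edgeR called 5805 and DESeq2 6025 genes.

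Rescaling to the pan-Schwann genes, of which 2 of 6 were lower, moved the median change of all genes from 0.03 to 1.05, and that of the members to -2.28. It left 760 lower and 11797 higher genes, 12557 in all, where the main analysis had 2671 and 3580. The cause of these shifts is the scaling itself. It also turned the sign of *Tspan2* (0.32), *Cadm4* (0.56), *Emp2* (0.047), *Perp* (0.95), *Fabp4* (0.99), *Fabp5* (0.55), *Qk* (0.33), *Hnrnpa2b1* (0.92), *Kif1b* (0.68), *Sox10* (0.32), *Egr2* (0.32), *Nab1* (1.02), *Adgrg6* (0.39), *Erbb2* (0.50) and *Foxd3* (0.66). Rescaling to the same total, which put the median of all genes at 0.19, turned *Perp* (0.084), *Fabp4* (0.12), *Hnrnpa2b1* (0.051) and *Nab1* (0.15), and the 75th percentile turned *Tmem47* (-0.022) and *Tead1* (-0.030). *Perp* and *Fabp4* also turned with edgeR (0.18 and 0.29) and DESeq2 (0.18 and 0.29). With 1 library left out, changes near 0 crossed it: *Perp* ran from -0.68 to 0.33, *Fabp4* from -0.78 to 0.44, *Nab1* from -0.11 to 0.061, *Tead1* from -0.26 to 0.27, *Zeb2* from -0.058 to 0.19 and *Cdh19* from -0.016 to 0.22. So did the difference between *Mal* and *Cnp*, from -0.085 to 0.10, and *Pmp2* relative to the pan-Schwann genes, from -0.36 to 0.46. The difference between *Mbp* and *Mobp* was -1.52 with a pseudocount of 10. The few reads behind *Mobp*, 430 and 18 over the 3 libraries of each group, limit what can be said of its size. The design of 3 against 3 libraries keeps each exact test at 0.1 or above.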
